A study of Mus musculus with 16 samples.

Results

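The enzymes and carriers of the urea cycle and of amino acid breakdown were followed through liver and liver tumours of Axin1-deleted mice. The set was a fixed list of 38 gene symbols, chosen with earlier results of these data known. Of these, 37 were found in the probe set annotation, each with 1 probe set, among 23279 genes tested. Sds was not analysed here. The genes were placed in 7 groups by the substrate they handle: 8 of the urea cycle, 4 of histidine, 4 of tyrosine, 5 of tryptophan, 8 of methionine, choline and cysteine, 3 of glycine and serine, and 5 of proline, lysine and general transamination. Deleted mice carried a floxed Axin1 allele (Axin1 fl/fl) and Alfp-Cre, which is active in embryonic hepatocytes. Which other liver cells keep the gene was not tested. Tumours appear in them after 9 months of age. All animals were males of 16 months. The 3 groups were liver of 3 control mice without the deletion (mice 10, 11 and 12), non-tumoral liver beside tumours from 5 deleted mice (121, 124, 123, 1931 and 81), and 8 tumours from 6 deleted mice (121, 90, 124, 123, 93 and 81). Mouse 121 gave 3 tumours, 1 without a number and tumours 2 and 3, which were averaged before any test.

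In mammals the liver turns ammonia into urea and degrades most amino acids that the body does not use for protein. The urea cycle starts in hepatocyte mitochondria and ends in the cytosol, and it is most active in hepatocytes near the portal vein. The breakdown of histidine, tyrosine, tryptophan and lysine runs through chains of enzymes that are expressed mainly in hepatocytes, and methionine breakdown supplies methyl groups and cysteine. Expression of several of these enzymes follows glucagon, glucocorticoids and dietary protein, and many are lower in liver cancer than in healthy liver.

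Levels are log2 expression values, 1 array per sample, so a difference of 1 is 2-fold, and a value compares arrays for 1 gene, not 1 gene with another. Array medians lay between 4.37 and 4.50; with 3 to 6 mice a group, few arrays limit how precise a mean is. Axin1 lay between 5.07 and 5.48 in controls, 3.90 and 4.39 in adjacent livers, and 3.95 and 4.81 in tumours. The 10 hepatocyte markers (such as albumin) had mean values of 12.1 to 12.2 in controls, 12.1 in every adjacent liver and 11.8 to 12.2 in tumours. In whole tissue, fewer cells of a type and less RNA per cell cannot be told apart. Of markers of other cells, the 12 stellate and fibroblast genes had mean values of 5.91 to 6.80 in tumours and 5.51 to 6.54 in adjacent livers, the 7 cholangiocyte genes 3.62 to 4.67 and 3.72 to 3.87, and the 11 endothelial genes 5.91 to 6.90 and 6.29 to 6.58. Single genes could differ more: of the stellate and fibroblast genes 1 was at least 2-fold lower in tumours than in adjacent liver and 3 higher. Of the endothelial genes 2 were lower and 2 higher by that measure, where 0.945% and 1.5% of all genes were. The 11 macrophage genes had mean values of 5.32 to 7.16 in tumours and 5.91 to 7.27 in adjacent livers, with 3 at least 2-fold lower and 0 higher. Control 10 stood apart, at 8.87 for 11 macrophage genes and 6.18 for 10 neutrophil genes, where the lowest controls were at 5.64 and 3.61.

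Most genes of amino acid breakdown had a lower mean in tumours than in adjacent liver, and the size varied widely from tumour to tumour. This set 6 tumour mice against 5 adjacent livers as groups, not mouse by mouse. Of the 37 genes, 35 (94.6%) had a mean below that of adjacent liver, where 56% of all genes did; the exceptions were Ass1 and Gldc. The count was 34 after quantile normalization and 35 after median centring of the arrays. The median log2 difference was -0.55, against -0.03 over all genes. In limma (Benjamini-Hochberg over all genes, adjusted p under 0.05) 0 of 37 passed, where 0.155% of all genes passed (0.0129% lower and 0.142% higher), and the smallest adjusted p was 0.0929, for Haao. At an unadjusted p under 0.05, 16 of 37 genes were lower (8.32% of all genes) and 0 were higher (6.95%). With 1 mouse left out the count of lower genes ran from 11 to 26. It was 11 without tumour 90 (7.32% of all genes) or tumour 123 (6.61%), and 26 without tumour 81 (7.67%). A 2-fold lower mean was seen in 4 (0.945% of all genes), Prodh, Dmgdh, Afmid and Aass, and 0 were 2-fold higher (1.5%). Tumour and adjacent mice did not overlap in 4 genes, Prodh, Aldh4a1, Fah and Slc25a13, all lower in tumours (1.11% of all genes), and 0 were higher without overlap (1.12%).

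**Figure D1:**
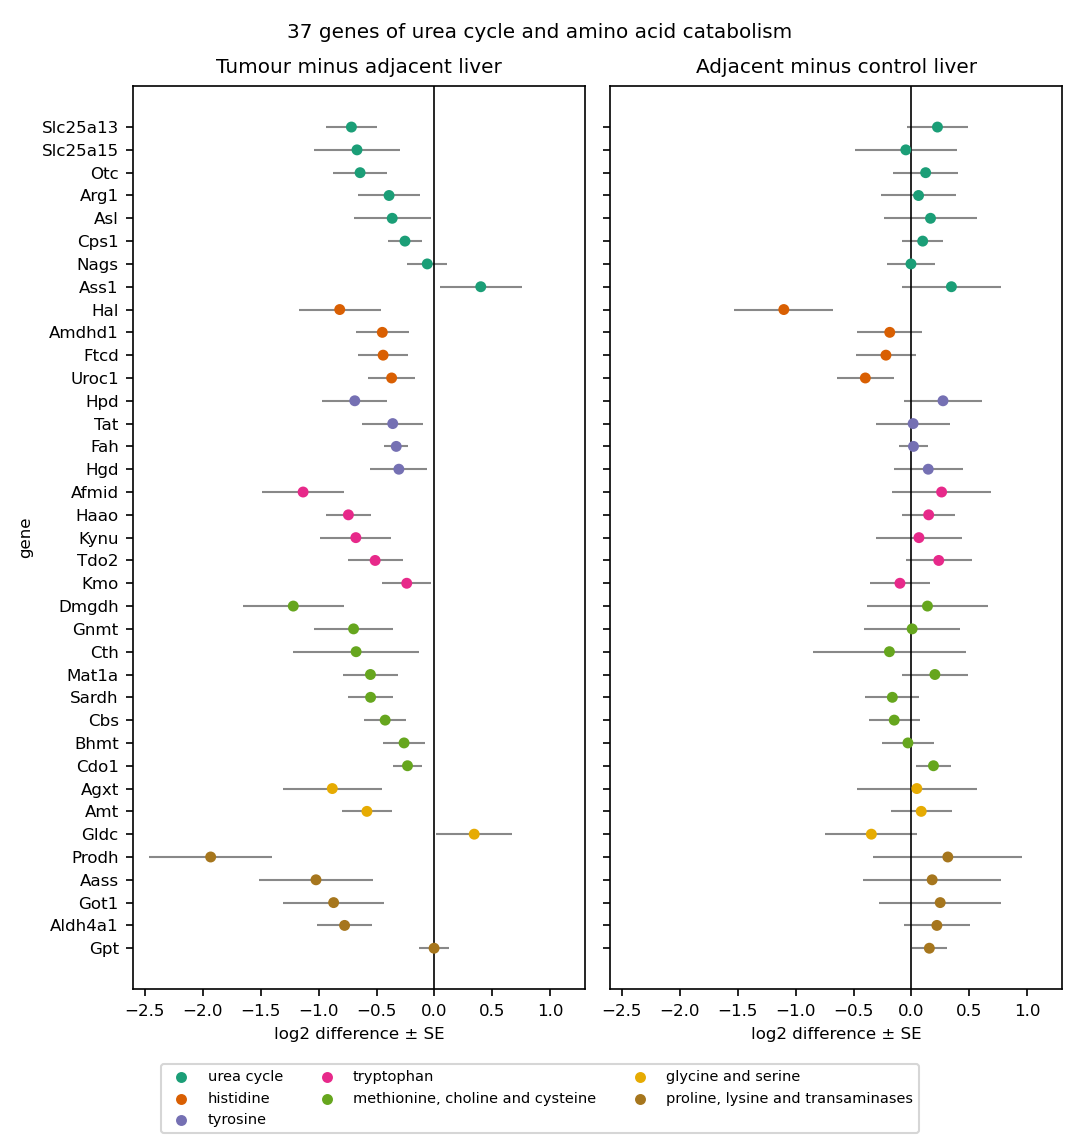
Log2 differences of the 37 genes (rows, coloured by group) for tumour (6 mice) minus adjacent liver (5 mice), left, and adjacent minus control liver (3 mice), right; bars are 1 standard error of the limma fit. On the left all points but Ass1 and Gldc lie below 0 or, for Gpt, at it, and Prodh lies farthest, at -1.93; on the right Hal lies farthest, at -1.10.

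The 16 genes at an unadjusted p under 0.05 were spread over all 7 groups. They were Otc and Slc25a13 of the urea cycle, Hal of histidine, Hpd and Fah of tyrosine, Tdo2, Afmid, Kynu and Haao of tryptophan, Mat1a, Cbs, Dmgdh and Sardh of methionine and choline, Amt of glycine, and Prodh and Aldh4a1 of proline breakdown. The median log2 difference by group ran from -0.35 for tyrosine to -0.87 for proline, lysine and transaminases. Tryptophan stood at -0.68, glycine and serine at -0.58, methionine, choline and cysteine at -0.55, histidine at -0.45 and the urea cycle at -0.38. These group medians were not tested against one another.

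**Figure D2:**
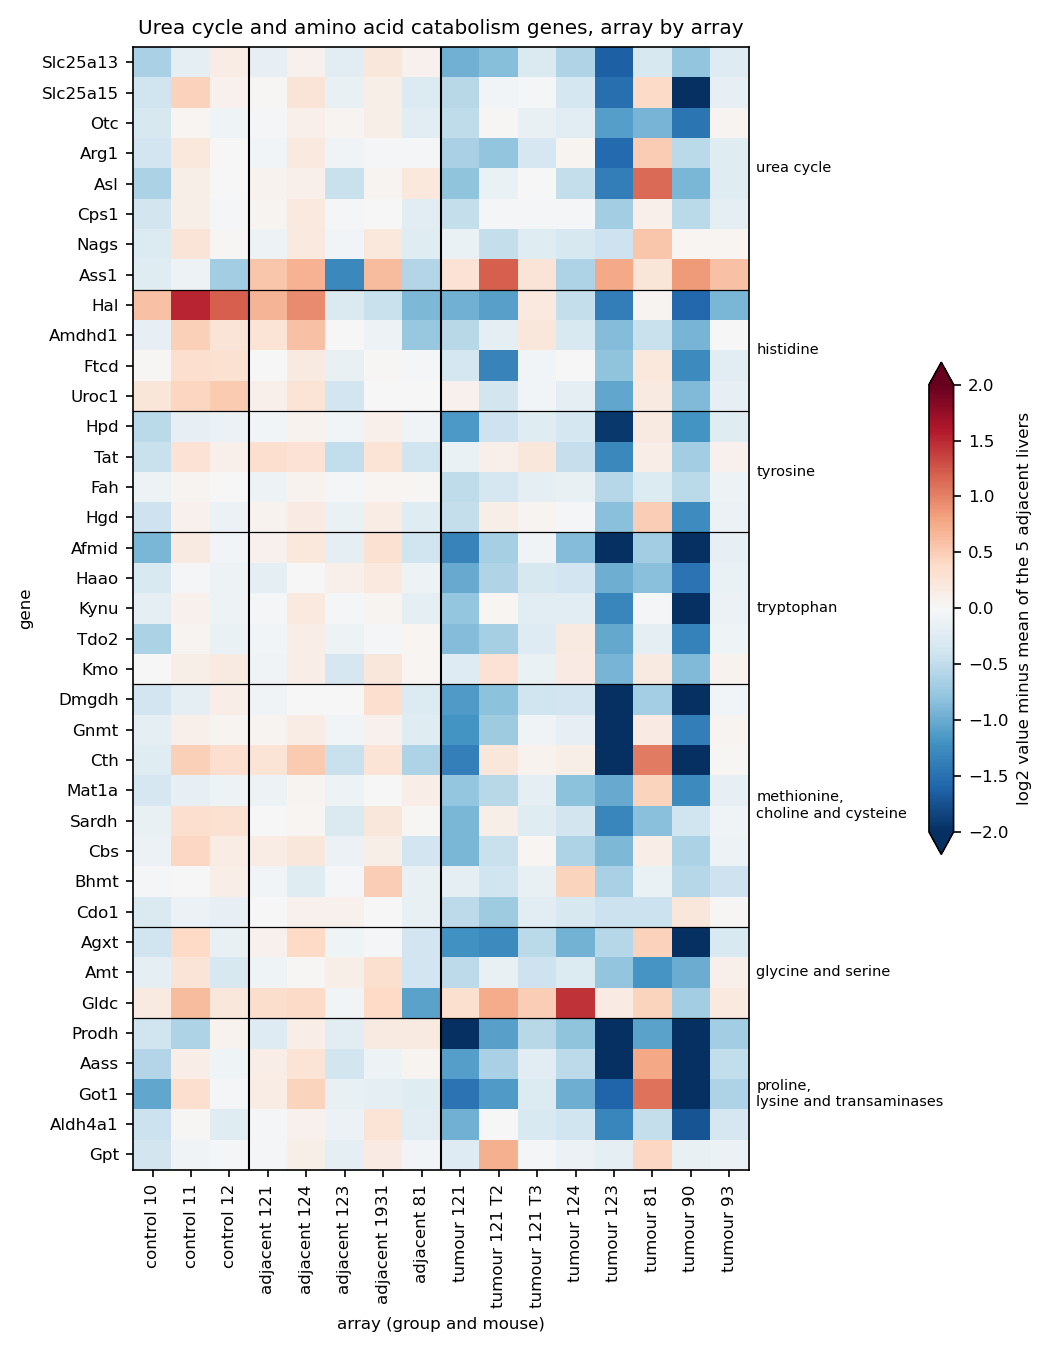
Log2 value minus the mean of the 5 adjacent livers, as colour (blue lower, red higher, saturated at 2 either way), for the 37 genes (rows, by group) on the 16 arrays (columns, by tissue and mouse). Tumours of mice 90 and 123 are blue in most rows, and that of mouse 81 is red in many.

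The urea cycle had a median difference of -0.38, and its largest differences were in the mitochondrial carriers. By tumour array, the median of its 8 genes from the adjacent mean ran from -1.24 in mouse 123 to 0.317 in mouse 81. Slc25a13 (Entrez gene 50799), the aspartate-glutamate carrier that feeds aspartate to the cycle, was at 8.21, 8.69 and 9.02 in controls. In adjacent livers of mice 121, 124, 123, 1931 and 81 it was at 8.70, 8.95, 8.63, 9.09 and 8.95. Over the 6 tumour mice it ran from 7.24 (mouse 123) through a median of 8.22 to 8.61 (mouse 93). Every tumour mouse was below every adjacent liver, though the highest tumour lay close to the lowest adjacent liver. The difference was -0.72 (SE 0.22, limma adjusted p = 0.141).

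Slc25a15 (Entrez gene 18408) exchanges ornithine and citrulline across the mitochondrial membrane. It was at 8.76, 9.61 and 9.24 in controls and at 9.18, 9.42, 9.01, 9.27 and 8.89 in adjacent livers in the same order of mice. Tumours ran from 6.99 (mouse 90) through a median of 8.87 to 9.54 (mouse 81). The groups overlapped, with the tumours of mice 90 and 123 low (6.99 and 7.65) and that of mouse 81 above all adjacent livers. The difference was -0.67 (SE 0.37, adjusted p = 0.414).

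Nags (Entrez gene 217214) makes N-acetylglutamate, without which the first enzyme of the cycle is inactive. Its controls were at 8.06, 8.59 and 8.37, and its adjacent livers at 8.23, 8.52, 8.28, 8.55 and 8.10. Tumours ran from 7.92 (mouse 123) through 8.21 to 8.90 (mouse 81). The groups overlapped throughout, and the difference was -0.06 (SE 0.17), and 0.01 without tumour 123.

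The 5 enzymes of the cycle proper were chosen for description after their values were seen. Cps1, which makes carbamoyl phosphate from ammonia, was at 11.75 ± 0.15 (SD, n = 5 mice) beside tumours and 11.49 ± 0.30 (SD, n = 6 mice) within them (difference -0.25, SE 0.15). Otc, which joins carbamoyl phosphate to ornithine, was at 10.53 ± 0.14 and 9.89 ± 0.60 (difference -0.64, SE 0.23, adjusted p = 0.198). Otc was the enzyme with the largest difference of the 5. Asl, which releases arginine, differed by -0.37 (SE 0.33) and Arg1, which splits arginine into urea and ornithine, by -0.39 (SE 0.27). Ass1, which joins citrulline to aspartate, was at 4.66 ± 0.89 (SD, n = 5 mice) beside tumours and 5.06 ± 0.54 (SD, n = 6 mice) within them (difference 0.40, SE 0.36). Its values, from 3.38 to 5.85 over the 16 arrays, were near the array medians, so its probe set was dim.

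The 4 enzymes of histidine breakdown had a median difference of -0.31 between adjacent and control liver, the lowest of the 7 groups, and of -0.45 between tumour and adjacent liver. Hal (Entrez gene 15109), histidine ammonia-lyase, takes the first step. It was at 9.43, 10.37 and 10.03 in controls 10, 11 and 12, and at 9.52, 9.79, 8.55, 8.40 and 7.94 in adjacent livers of mice 121, 124, 123, 1931 and 81. Over tumour mice it ran from 7.26 (mouse 90) through 8.07 to 8.90 (mouse 81). Adjacent livers thus split, those of mice 121 and 124 within the control range and the others below it, and all tumour mice were below all controls. Tumour minus adjacent was -0.82 (SE 0.35, adjusted p = 0.283).

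Amdhd1 (Entrez gene 71761), imidazolonepropionase, acts on the product of Uroc1. It was at 8.81, 9.45 and 9.23 in controls and at 9.25, 9.56, 8.99, 8.88 and 8.22 in adjacent livers. Tumours ran from 8.06 (mouse 90) through 8.60 to 8.98 (mouse 93), and overlapped both other groups (difference from adjacent -0.45, SE 0.23, adjusted p = 0.378). The low adjacent liver was again that of mouse 81.

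Uroc1 (Entrez gene 243537), urocanase, acts on the product of Hal and had the smallest difference of the group. It was at 8.92, 9.11 and 9.20 in controls and at 8.79, 8.95, 8.29, 8.69 and 8.68 in adjacent livers. Tumours ran from 7.64 (mouse 123) through 8.50 to 8.86 (mouse 81), below all controls but overlapping adjacent livers (difference -0.37, SE 0.20, adjusted p = 0.414). Ftcd, which passes the last carbon of histidine to folate, differed by -0.44 (SE 0.21, adjusted p = 0.347).

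Upstream sequence is shown for Prodh, which had the largest difference of the 37 genes, and for Hal and Ftcd, the first and last enzymes of histidine breakdown. Each is the 250 bases before the RefSeq start of the gene, 5′ to 3′ on the gene's strand, in GRCm38.p6. Capitals mark matches, on either strand, to TTGCNNAA (a C/EBP motif), GTTAAT (a partial HNF1 site) or CAAAGTNCA (an HNF4 motif), factors of the hepatocyte.
Prodh, chr16:18089191-18089440, minus strand: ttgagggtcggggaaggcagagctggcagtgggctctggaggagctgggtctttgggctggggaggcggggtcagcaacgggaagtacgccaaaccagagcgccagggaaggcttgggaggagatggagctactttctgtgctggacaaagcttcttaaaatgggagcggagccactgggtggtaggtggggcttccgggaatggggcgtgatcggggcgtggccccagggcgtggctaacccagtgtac
Hal, chr10:93488518-93488767, plus strand: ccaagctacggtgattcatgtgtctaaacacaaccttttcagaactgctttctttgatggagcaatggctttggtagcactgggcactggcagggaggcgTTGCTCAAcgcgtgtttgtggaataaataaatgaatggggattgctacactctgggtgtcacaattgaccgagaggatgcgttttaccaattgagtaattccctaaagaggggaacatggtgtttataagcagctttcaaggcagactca
Ftcd, chr10:76575398-76575647, plus strand: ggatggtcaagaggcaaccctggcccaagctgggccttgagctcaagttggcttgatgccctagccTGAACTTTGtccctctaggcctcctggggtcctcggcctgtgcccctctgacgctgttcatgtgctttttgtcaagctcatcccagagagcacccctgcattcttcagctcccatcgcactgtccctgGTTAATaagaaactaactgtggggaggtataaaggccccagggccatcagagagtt
The window of Prodh held none of the 3 motifs and had a GC content of 63.2%. That of Hal (45.6% GC) held 1 C/EBP match beginning 150 bases before the start. That of Ftcd (56.0% GC) held 1 HNF4 match at 184 bases and 1 partial HNF1 site at 56 bases before the start, and its other letters are as printed. RefSeq windows were matched by symbol for 29 of the 37 genes, giving 30 windows. The C/EBP motif was in 3 of these 30 (Aass, Hal and Hgd) and in 9.56% of 32851 windows of all genes, the partial HNF1 site in 2 (Ftcd and Haao) and 6.43%, and the HNF4 motif in 1 (Ftcd) and 1.19%. A match describes letters and is not a measured binding site.

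The 4 genes of tyrosine breakdown had a median difference of -0.35. Hpd (Entrez gene 15445), which makes homogentisate, was at 11.32, 11.70 and 11.75 in controls and at 11.81, 11.93, 11.81, 11.96 and 11.80 in adjacent livers. Tumours ran from 9.94 (mouse 123) through 11.39 to 12.04 (mouse 81). Adjacent livers were tightly grouped, and the single tumour mouse that was not below them was mouse 81. The difference was -0.69 (SE 0.28, adjusted p = 0.255).

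Tat (Entrez gene 234724), tyrosine aminotransferase, opens the pathway and responds to glucocorticoids. It was at 10.81, 11.56 and 11.37 in controls and at 11.59, 11.55, 10.78, 11.53 and 10.86 in adjacent livers. Tumours ran from 9.97 (mouse 123) through 11.06 to 11.40 (mouse 81). Its spread within adjacent liver was wide, and the difference was -0.36.

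Hgd (Entrez gene 15233), which opens the ring of homogentisate, was at 10.70, 11.19 and 11.001 in controls and at 11.18, 11.27, 10.98, 11.25 and 10.87 in adjacent livers. Tumours ran from 9.85 (mouse 90) through 11.005 to 11.60 (mouse 81), on both sides of the adjacent range (difference -0.31). Fah, the last enzyme, whose loss causes tyrosinaemia, was the tyrosine gene whose tumour and adjacent values did not overlap. They nearly touched, with the highest tumour mouse at 10.912 and the lowest adjacent liver at 10.913. Fah was at 11.01 ± 0.07 (SD, n = 5 mice) beside tumours and 10.68 ± 0.20 (SD, n = 6 mice) within them. The difference was small, at -0.33 (SE 0.10, limma adjusted p = 0.142). Fah was chosen for description after its values were seen.

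Tryptophan breakdown along the kynurenine route had 4 of its 5 genes lower at an unadjusted p under 0.05. Afmid (Entrez gene 71562), which frees kynurenine from its formyl group, was at 8.10, 9.19 and 8.96 in controls and at 9.10, 9.23, 8.81, 9.31 and 8.62 in adjacent livers. Tumours ran from 6.60 (mouse 90) through 8.24 to 8.84 (mouse 93). Overlap came from the tumour of mouse 93, which lay above 2 adjacent livers. Its mean was 2.2-fold lower in tumours (log2 difference -1.13, SE 0.35, adjusted p = 0.145).

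Haao (Entrez gene 107766) makes the precursor of quinolinate, from which NAD is built. It was at 10.24, 10.51 and 10.45 in controls and at 10.35, 10.54, 10.66, 10.75 and 10.44 in adjacent livers. Tumours ran from 9.07 (mouse 90) through 9.81 to 10.42 (mouse 93). The tumour of mouse 93 was again the highest, and the groups overlapped through it and adjacent liver 121. Its mean was 1.67-fold lower (difference -0.74, SE 0.19, adjusted p = 0.0929), and leaving out 1 mouse gave adjusted p between 0.0211 and 0.218.

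Kmo (Entrez gene 98256), kynurenine 3-monooxygenase, had the smallest difference of the group, -0.24. It was at 10.28, 10.41 and 10.47 in controls and at 10.22, 10.43, 9.94, 10.51 and 10.33 in adjacent livers, and tumours ran from 9.35 (mouse 123) through 10.31 to 10.46 (mouse 81). Tumours of mice 90 and 123 were below every adjacent liver, at 9.40 and 9.35, and the others were not. Tdo2, the liver enzyme that opens the route, differed by -0.51 (SE 0.24) and Kynu by -0.68 (SE 0.31).

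**Figure D3:**
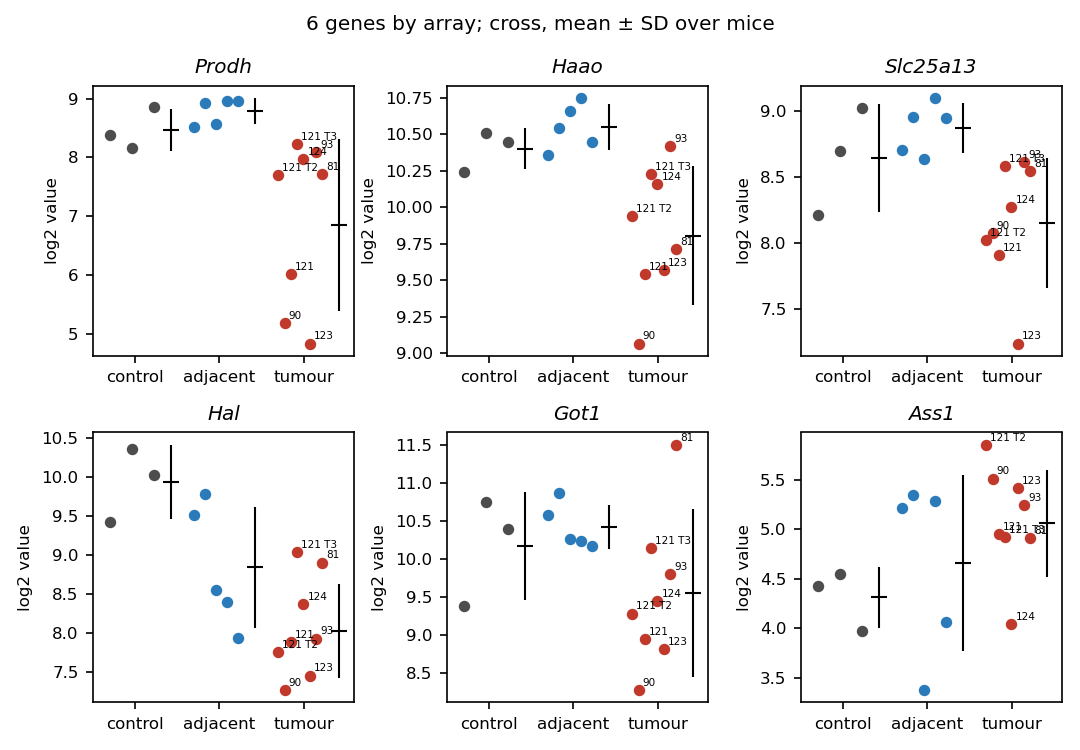
Log2 values of 6 genes on each array of control liver, adjacent liver and tumour (tumours marked with their mouse), with a cross and bar for the mean ± SD over mice, the 3 tumours of mouse 121 averaged first; the vertical axes differ and do not start at 0. Prodh spans 4.83 to 8.22 over tumour arrays and 8.52 to 8.96 over adjacent livers.

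Among methionine, choline and cysteine genes the largest difference was in choline breakdown. Dmgdh (Entrez gene 74129) and Sardh are the mitochondrial dehydrogenases that take methyl groups from dimethylglycine and sarcosine. Dmgdh was at 9.45, 9.66 and 9.97 in controls and at 9.76, 9.82, 9.85, 10.17 and 9.56 in adjacent livers. Tumours ran from 7.11 (mouse 90) through 9.10 to 9.78 (mouse 93). Mice 90 and 123 were far below the rest (7.11 and 7.12), and the tumour of mouse 93 was within the adjacent range. The difference was -1.22 (SE 0.44, adjusted p = 0.192), and Sardh differed by -0.55 (SE 0.19, adjusted p = 0.182).

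Gnmt (Entrez gene 14711), glycine N-methyltransferase, disposes of excess methyl groups. It was at 11.13, 11.40 and 11.36 in controls and at 11.36, 11.46, 11.24, 11.40 and 11.06 in adjacent livers. Tumours ran from 9.09 (mouse 123) through 10.89 to 11.47 (mouse 81), overlapping through the tumours of mice 124, 93 and 81 (difference -0.70, SE 0.34, adjusted p = 0.354).

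Cdo1 (Entrez gene 12583), cysteine dioxygenase, had the smallest difference of this group. It was at 10.87, 11.04 and 11.0006 in controls and at 11.15, 11.24, 11.24, 11.14 and 11.02 in adjacent livers. Tumours ran from 10.68 (mouse 121) through 10.79 to 11.39 (mouse 90). Here the tumour of mouse 90, lowest for many other genes, was the highest of all arrays (difference -0.23, SE 0.13). Of the remaining genes, Mat1a, which makes S-adenosylmethionine, differed by -0.55 (SE 0.23), Bhmt, which remethylates homocysteine, by -0.26, and Cbs and Cth, which carry sulphur to cysteine, by -0.43 (SE 0.18) and -0.68 (SE 0.55). Cth varied most, from 8.01 to 11.68 over tumour mice.

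The glycine and serine genes went both ways in mean. Agxt (Entrez gene 11611), alanine-glyoxylate aminotransferase, was at 9.40, 10.20 and 9.65 in controls and at 9.89, 10.20, 9.71, 9.78 and 9.41 in adjacent livers. Tumours ran from 6.87 (mouse 90) through 9.04 to 10.25 (mouse 81). The extremes lay outside the adjacent range on both sides (difference -0.88, SE 0.43, adjusted p = 0.347).

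Amt (Entrez gene 434437) and Gldc (Entrez gene 104174) are subunits of the glycine cleavage system. Amt was at 7.004, 7.46 and 6.89 in controls and at 7.12, 7.23, 7.32, 7.52 and 6.82 in adjacent livers, and tumours ran from 6.03 (mouse 81) through 6.63 to 7.31 (mouse 93). Its lowest tumour was that of mouse 81, which was high for most other genes (difference -0.58, SE 0.22, adjusted p = 0.209). Gldc was at 8.01, 8.45 and 8.04 in controls and at 8.17, 8.19, 7.77, 8.22 and 6.75 in adjacent livers, and tumours ran from 7.12 (mouse 90) through 8.14 to 9.26 (mouse 124). The difference for Gldc was 0.34 (SE 0.33, adjusted p = 0.675), with tumour 90 and adjacent liver 81 the low arrays.

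Proline breakdown held the largest difference of all. Prodh (Entrez gene 19125), proline dehydrogenase, starts the conversion of proline to glutamate in mitochondria, and Aldh4a1 completes it. Prodh was at 8.38, 8.17 and 8.86 in controls and at 8.52, 8.92, 8.56, 8.96 and 8.96 in adjacent livers. Its tumour arrays were at 6.02, 7.70 and 8.22 in mouse 121, 7.98 in mouse 124, 4.83 in mouse 123, 7.72 in mouse 81, 5.18 in mouse 90 and 8.09 in mouse 93. Every tumour array was below every adjacent liver, by little in mouse 93 and by far in mice 90 and 123, and the 3 tumours of mouse 121 spanned 2.20. The mean was 3.82-fold lower in tumours (log2 difference -1.93, SE 0.53, adjusted p = 0.111). With the mouse as a block the adjusted p was 0.0937 (random) and 0.217 (fixed, 4 mice), and leaving out 1 mouse gave 0.0425 to 0.234. Aldh4a1, chosen for description after its values were seen, was at 8.83 ± 0.19 (SD, n = 5 mice) beside tumours and 8.06 ± 0.59 (SD, n = 6 mice) within them, with no overlap between mice (difference -0.78, SE 0.23, adjusted p = 0.137). As a single array, tumour 2 of mouse 121 was at 8.82 for Aldh4a1, above the adjacent livers of mice 121, 123 and 81 (8.80, 8.71 and 8.62).

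Aass (Entrez gene 30956), which carries out the first steps of lysine breakdown, was at 9.50, 10.22 and 9.99 in controls and at 10.21, 10.36, 9.72, 9.97 and 10.14 in adjacent livers. Tumours ran from 7.26 (mouse 90) through 9.49 to 10.85 (mouse 81), again on both sides of the adjacent range (difference -1.02, SE 0.49, adjusted p = 0.346). Got1, cytosolic aspartate aminotransferase, had a similar spread, from 8.28 (mouse 90) to 11.50 (mouse 81), and a difference of -0.87 (SE 0.44, adjusted p = 0.365).

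Gpt (Entrez gene 76282), alanine aminotransferase, had the smallest difference of its group. It was at 8.19, 8.49 and 8.54 in controls and at 8.53, 8.67, 8.37, 8.72 and 8.50 in adjacent livers, and tumours ran from 8.38 (mouse 123) through 8.44 to 8.97 (mouse 81). The difference was -0.00 (SE 0.13), and 0.03 after quantile normalization of the arrays. In the tumours of mice 90 and 123, low for most of the 37 genes, Gpt was within the adjacent range (8.41 and 8.38).

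The tumours differed among themselves more than the adjacent livers did. The SD over tumour mice was larger than that over adjacent livers in 34 of 37 genes, where this held for 57.9% of all genes. The median range per gene was 1.51 over the 6 tumour mice and 0.525 over the 5 adjacent livers. These ranges come from unequal numbers of mice and were not computed over all genes. The lowest tumour mouse was 90 in 18 genes and 123 in 16, which were lowest in 19.8% and 16.8% of all genes. The highest was mouse 81 in 21 genes and 93 in 11 (22% and 18.9% of all genes).

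**Figure D4:**
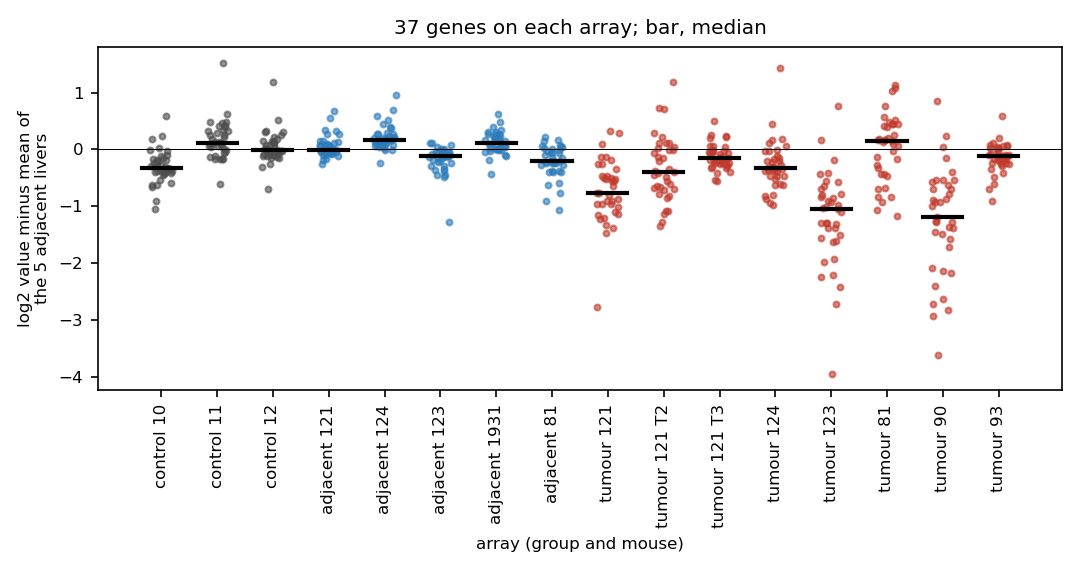
For each array, the log2 values of the 37 genes minus the mean of the adjacent livers, 1 point per gene, with the median marked. Medians lie at -1.19 in the tumour of mouse 90 and -1.04 in that of mouse 123, and at 0.14 in that of mouse 81.

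In the tumour of mouse 90 the median over the 37 genes was -1.19 from the adjacent mean, with 32 genes under all 5 adjacent livers (26.4% of all genes) and 19 at least 2-fold lower (4% of all genes). In that of mouse 123 the median was -1.04, with 34 genes under all adjacent livers (26.4% of all genes) and 21 at least 2-fold lower (2.83%). Without tumour 90 the median difference of tumour and adjacent liver was -0.37 (-0.03 over all genes), and without tumour 123 it was -0.40 (-0.02). In either case 1 of the 37 genes was 2-fold lower, a share not counted over all genes. The hepatocyte marker means of tumours 90 and 123 were 12.1 and 12.2, within or above the adjacent range. Whether markers so near the top of the scale could register a loss of hepatocyte RNA was not tested.

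Tumours of the other mice were nearer to adjacent liver. Medians were -0.32 in mouse 124 (19 genes under all adjacent livers, 21.7% of all genes) and -0.12 in mouse 93 (12 genes, 17.3% of all genes). The tumour of mouse 81 went the other way, at 0.14, with 12 genes under and 15 above all adjacent livers (25.4% and 23.1% of all genes). It was the highest of all 16 arrays for 11 genes (8.47% of all genes): Asl, Arg1, Nags, Hpd, Hgd, Mat1a, Gnmt, Cth, Agxt, Aass and Got1. Among its 12 genes under every adjacent liver were Prodh, Afmid, Haao, Otc, Amt and Dmgdh. Its hepatocyte marker mean, 11.8, was the lowest of the tumours, and its cholangiocyte marker mean was 4.41; their part in the result was not tested.

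Mouse 121 allowed tumours of 1 animal to be compared. The medians over the 37 genes were -0.77 in its unnumbered tumour, -0.39 in tumour 2 and -0.15 in tumour 3, with 29, 20 and 16 genes under all adjacent livers (25.2%, 25.3% and 20.5% of all genes). The unnumbered tumour was the lowest of the 3 in 28 genes (32.2% of all genes) and tumour 3 in 1 (30.8%). The median range per gene between these 3 tumours was 0.734, against 0.525 between the adjacent livers of 5 animals. Cholangiocyte markers were highest in tumour 3 (4.67).

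In the 4 mice with both tissues each tumour could be set against its own liver. In mouse 121, 33 of 37 genes were lower in the tumour mean (50.1% of all genes), with a median of -0.404. In mouse 124 it was 33 genes (52.2%), with a median of -0.412, and in mouse 123 it was 34 genes (57%), with a median of -0.931. In mouse 81 only 12 genes were lower (52.1%) and the median was 0.305. Mouse 81 thus differed from the other 3 in direction, with Cth higher by 1.66 and Got1 by 1.32 in its tumour. Gldc was higher by 1.51 there, but was higher in the tumours of the other 3 mice too. Part of these differences lay in the adjacent liver of mouse 81, which was at -0.62, -1.065 and -0.25 from the adjacent mean for Cth, Gldc and Got1. The tumour of mouse 81 was at 1.03, 0.4455 and 1.08 from that mean for the same genes.

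Lower in all 4 pairs were 11 genes (13% of all genes): Afmid, Aldh4a1, Amt, Cdo1, Dmgdh, Fah, Haao, Otc, Prodh, Sardh and Slc25a13. Prodh was lower by 1.21 in mouse 121, by 0.94 in mouse 124, by 3.73 in mouse 123 and by 1.24 in mouse 81. A further 21 genes were lower in 3 of 4 pairs (26.3% of all genes), Bhmt in 2 (29.6%), and Ass1, Gpt and Kmo in 1 (21.1%). Gldc was higher in the tumour of all 4, where 9.97% of all genes were lower in 0 pairs. With the mouse as a fixed replicate block in these 4 mice 0 genes of the genome passed, 11 of the 37 were lower at an unadjusted p under 0.05 (6.93% of all genes) and the median difference was -0.43; as a random block over all arrays, 206 genes passed, none of them among the 37, and 20 were lower (9.19%).

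The comparison of adjacent with control liver asked whether the non-tumoral tissue of deleted mice already differed. The means differed little: 12 of 37 genes were below control (51.5% of all genes), the median difference was 0.08, and 0 passed (0% of all genes; limma, smallest adjusted p 0.999). At an unadjusted p under 0.05, 1 gene was lower, Hal (2.94% of all genes), and 0 were higher (1.61%). Hal was also the 1 gene at least 2-fold lower (0.168% of all genes), with a difference of -1.10 (SE 0.43), and it did not reach that p without control 11, control 12 or adjacent liver 81. The other 3 histidine genes were below control by less: Uroc1 at -0.40 (SE 0.24), Ftcd at -0.22 (SE 0.26) and Amdhd1 at -0.19 (SE 0.28), the last reaching 0.003 without adjacent liver 81. Hpd was the 1 gene whose adjacent and control values did not overlap, higher in adjacent liver by 0.27 (SE 0.34; 2.18% of all genes, and 2.04% lower). Control 10 was the low control for most genes, with a median of -0.32 from the adjacent mean and 22 of 37 below every adjacent liver (22.3% of all genes). Without control 10 the median was -0.06 (-0.01 over all genes) and 22 of 37 genes were below control. Without adjacent liver 81 the count below control was 8, with an all-gene median of -0.008. The share of all genes below control was not counted in these fits.

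Tumours against control liver, which share the tumour arrays with the first comparison and the controls with the second, gave 35 of 37 genes below control (57.8% of all genes) and a median of -0.52. In limma 0 of 37 passed (0.0258% of all genes, 0.0129% lower and 0.0129% higher). At an unadjusted p under 0.05, 9 were lower (6.88%) and 0 higher (5.65%): all 4 histidine genes, Cbs, Sardh, Haao, Fah and Prodh. Hal had the largest difference, 3.79-fold lower (log2 difference -1.92, SE 0.41, adjusted p = 0.101, smallest of the 37), and Prodh was 3.07-fold lower (-1.62, SE 0.62, adjusted p = 0.301). Uroc1 was at -0.77 (SE 0.24, adjusted p = 0.193). Hal, Uroc1 and Prodh did not overlap between tumour mice and controls (3.08% of all genes), and 0 genes were higher without overlap (2.11%). Hal, Prodh and Dmgdh were at least 2-fold lower (0.889%). Without control 10 the median was -0.66 (-0.05 over all genes) and 8 genes were 2-fold lower, a share not counted over all genes. The count of 9 was 4 without control 11 (6.65% of all genes), 5 without control 12 (4.69%), 15 without tumour 93 (8.04%) and 19 without tumour 81 (6.73%).

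Of 9 lists of related genes, 0 members passed in tumour against adjacent liver, so their counts are given at an unadjusted p under 0.05, at which 8.32% of all genes were lower and 6.95% higher. Of 17 genes of branched-chain amino acid breakdown 16 were below adjacent liver and 12 at that p, with a median difference of -0.48. Pccb, a subunit of propionyl-CoA carboxylase, was at -0.93 (adjusted p = 0.0759, chosen after its value was seen), and Hibadh, which oxidises a valine intermediate, had the largest difference below 0 in the list, -0.96 (SE 0.24, adjusted p = 0.09). Bckdk, the kinase that switches off the branched-chain keto acid dehydrogenase, was the 1 gene above adjacent liver, at 0.20 (SE 0.12). Per tumour the list median was -1.18 in mouse 90, -0.912 in mouse 123 and -0.845 in the unnumbered tumour of mouse 121, and -0.156 to -0.259 in the other tumours. These 3 were also the tumours with the lowest medians for the 37 genes.

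**Figure D5:**
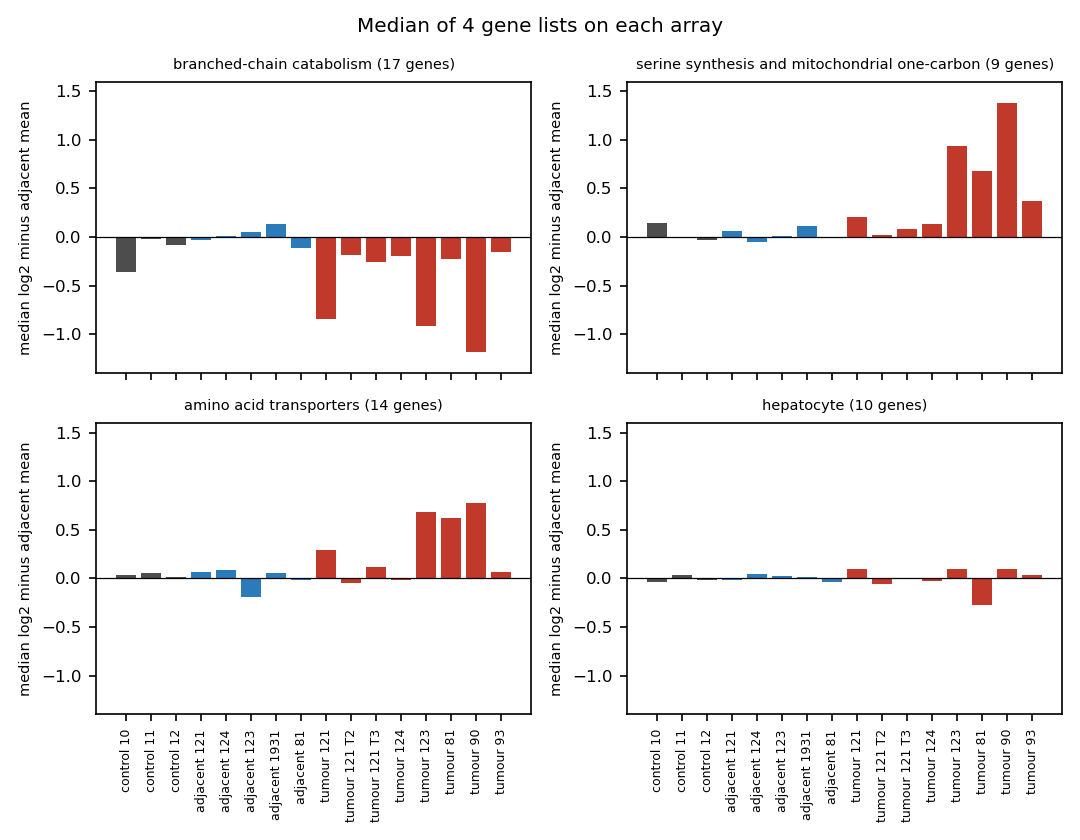
Bars give, for each of the 16 arrays, the median over the genes of a list of the log2 value minus the mean of the 5 adjacent livers, for 4 lists; grey is control, blue adjacent liver and red tumour. Branched-chain genes reach -1.18 in tumour 90, where the list named for serine synthesis and mitochondrial one-carbon genes is at 1.38.

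Other catabolic lists had medians below 0 too, but that of other transaminases and oxidases was near the -0.03 of all genes. Of 13 other genes of aromatic, lysine and threonine breakdown, 8 were lower, from Acmsd at 0.56 (SE 0.58) to Aadat, an aminotransferase of lysine and kynurenine breakdown, at -1.33 (SE 0.44, adjusted p = 0.162). Of 14 other methionine, folate and cysteine genes 8 were lower and 1 higher, from Gclc at 0.60 (SE 0.27) to Suox, sulphite oxidase, at -1.36 (SE 0.45, adjusted p = 0.163). Of 9 other transaminases and oxidases 1 was lower, from Kyat1 at 0.27 to Abat, the GABA transaminase, at -0.76 (SE 0.36). The list medians were -0.45, -0.39 and -0.04. Ornithine, arginine and creatine genes split: 3 of 11 were lower and 3 higher, with Oat, ornithine aminotransferase, at -2.13 (SE 0.85; tumours from 5.94 to 11.75) and Arg2, the mitochondrial arginase, at 0.77 (SE 0.32).

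Of a list of 9 genes, most of them of serine synthesis and the mitochondrial one-carbon pathway, 6 were higher and 1 lower, with a median of 0.65. The list also held Asns, Aldh18a1 and the cytosolic Shmt1, and lacked Phgdh, which was not found in the annotation. Psat1, an enzyme of serine synthesis, was at 1.64 (SE 0.60, limma adjusted p = 0.199) and Shmt1 at -0.61 (SE 0.24). The per-tumour medians of this list were 1.38 in mouse 90, 0.937 in mouse 123 and 0.678 in mouse 81. The list was thus high both in the tumours lowest for the 37 genes and in the one highest for them. Amino acid transporters went both ways: of 14, 5 were higher and 2 lower (median 0.16), from Slc38a3, a glutamine transporter, at -0.47 (SE 0.12) to Slc7a11, which imports cystine, at 4.01 (SE 1.04; tumours from 3.46 to 10.5). Of 11 regulators 4 were lower and 0 higher (median -0.44), from Atf4, the amino acid stress factor, at 0.33 (SE 0.18) to Klf15, a factor that drives amino acid breakdown in fasting, at -0.83 (SE 0.27, adjusted p = 0.157). The 6 housekeeping genes had a median of 0.08, from Sdha at -0.49 (SE 0.20) to Actb at 0.44 (SE 0.14).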

How the data were processed

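RNA extracted with Trizol was amplified by a whole-transcriptome kit, labelled with biotin and hybridised to 1-colour arrays, per the labels' protocols. The deposited values are log2 expression values. The submitters' processing notes name RMA and Partek with no version. Chip model, probe set definition and build were not given in the sources used here. RMA equalises array distributions, which removes global shifts and compresses differences of dim probe sets.

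Of 24479 probe sets, 23281 had 1 gene symbol, 0 several and 1198 none; for 2 symbols with 2 probe sets the brighter was used. The 3 groups were fitted together in limma 3.58.1 (R 4.3.3; lmFit, eBayes with intensity trend, no block), with Benjamini-Hochberg adjustment of p over 23279 genes, and SE is that of the fit. The script was tested on simulated data. Mouse numbers in the titles pair 4 mice; their deviations from group means correlated at 0.0349 to 0.0998 (different mice -0.328 to 0.317). Alternatives were the mouse as a random or fixed block, quantile normalization, median centring, a filter on dim probe sets (12864 genes and all 37 members kept), the mean of probe sets, array weights, no trend, 2 groups alone, other handling of mouse 121, and each mouse left out. The labels name no batch, and they do not say whether tumour 93 and adjacent liver 1931 are of 1 animal.

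The members, the groups and the lists were chosen with earlier results of these data known. Named with every array, or the range over tumour mice, are the 2 genes of each group with the largest difference of tumour and adjacent liver and the 1 with the smallest; of each list, the largest rise and fall. Promoter windows come from RefSeq (GRCm38.p6).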

Additional observations from a re-analysis of the deposited data

Results flagged for a closer look

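In 3 of 74 groups of 4 to 10 mice, 1 value stood far from the others by Dixon's criterion, where chance gives about 1 in 20. Asl was at 10.02 in adjacent liver 123, with the nearest other adjacent liver at 10.53 and the highest at 10.68. Arg1 was at 10.96 in adjacent liver 124, with the others between 10.69 and 10.74. Bhmt was at 7.48 in adjacent liver 1931, with the nearest at 6.95 and the lowest at 6.74.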

How the results depend on the processing

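The direction of most differences held, whereas counts of genes passing the threshold did not. Between tumour and adjacent liver 36 genes passed in the fit reported; the count was 22 with quantile normalization, 16 with median centring, 181 with the dim filter, 442 with array weights, 8 with the 2 groups alone, 87 with 8 tumours as separate values, 157 with the unnumbered tumour of mouse 121, 206 with a random replicate block for the mouse and 0 with a fixed replicate block. Of the 37 genes 1 passed with array weights (Haao, -0.65, limma adjusted p = 0.0436), where 1.9% of all genes passed. In the fixed block 1 of the 37 was higher at an unadjusted p under 0.05. Leaving out each mouse gave 5 to 743 genes, 0 to 3 of the 37 passing and 11 to 26 lower at an unadjusted p under 0.05. The 3 were Haao (adjusted p = 0.0211), Prodh (0.0425) and Afmid (0.0489) without tumour 93, where 3.19% of all genes passed; the 26 came without tumour 81. Differences ranged from -0.87 to -0.60 for Haao, -2.18 to -1.53 for Prodh, -1.33 to -0.88 for Afmid, -0.19 to 0.0078 for Nags and -0.0869 to 0.0367 for Gpt. Gpt was at 0.0251 with quantile normalization, 0.0311 with 8 tumours, 0.0329 with the random block and 0.10 with the fixed block.

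Between tumour and control 6 genes passed; the count was 35 with the dim filter, 3 without the trend, 31 with 8 tumours, 33 with the unnumbered tumour and 24 with the random block, and 0 to 242 with a mouse left out. Of the 37 genes 4 to 19 were then lower and 0 to 1 higher at an unadjusted p under 0.05; 1 was higher with the 2 groups alone. Gldc turned to 0.14 with array weights, 0.0414 with 8 tumours and 0.0335 with the random block, and ranged from -0.22 to 0.21 with a mouse left out. The ranges of Asl (-0.50 to 0.00271), Cdo1 (-0.14 to 0.00600), Hgd (-0.32 to 0.0277) and Nags (-0.21 to 0.0606) also held 0. Between adjacent and control liver the 2 groups alone gave 2 genes lower and 3 higher; a mouse left out gave 0 to 1 genes passing, 0 to 1 of the 37 lower and Amdhd1 from -0.36 to 0.00298. The cause of these changes was not tested. The brightness of Ass1, near the array medians, limits its values.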
